A study of Mus musculus with 16 samples.

Results

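The comparison described here is that of morphine with saline over all 16 mice, with the virus each mouse carried held constant in the model. RNA of the medial prefrontal cortex (mPFC), the cortical area that directs choices about reward, was sequenced as full-length cDNA on a Nanopore instrument. Of the mice with the control virus, 4 had morphine (Ctrl + Morphine) and 3 had saline (Ctrl + Saline). Of those with the knockdown virus, 4 had morphine (Kdm7a-shRNA + Morphine) and 5 had saline (Kdm7a-shRNA + Saline), so that 8 morphine mice were set against 8 saline mice. All were male C57BL/6 mice of 8 to 10 weeks. All had an adeno-associated virus injected into both sides of the mPFC, which carried either a hairpin against the histone demethylase gene Kdm7a or a control hairpin, each driven by the U6 promoter beside EGFP under the CMV promoter. The morphine mice had morphine at 10 mg/kg and saline on alternating days of conditioned place preference (CPP) training, in which a chamber comes to predict the drug, whereas the saline mice had saline only. Tissue was taken on day 7 of withdrawal, after a second preference test, and no group without a virus or without the behavioural test belongs to the comparison. The questions were which genes differed after morphine irrespective of the virus, and in which genes the difference depended on the virus.

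The table holds 26625 entries, of which 19069 are known genes and the others are loci or long non-coding RNAs. After removal of genes with few reads, 14162 known genes were tested, and only these are counted and named below. Between 6596991 and 12418112 reads per mouse were counted. Kdm7a, the target of the hairpin, had a normalised level of 6.19 to 9.78 CPM, the read count scaled to a common library size, in the 7 Ctrl mice and 3.01 to 6.28 CPM in the 9 Kdm7a-shRNA mice, so the groups overlapped only narrowly with a log2 difference between viruses of -0.71 ± 0.14 (SE; adjusted p = 0.00121, edgeR's quasi-likelihood test). Its morphine difference was -0.23 ± 0.14 (log2, SE, n = 8 against 8; adjusted p = 0.729, edgeR's quasi-likelihood test). Where groups are compared below, each log2 value is the morphine mean over the saline mean at equal virus, an unadjusted p is named as such, and an adjusted p is the Benjamini-Hochberg value of edgeR's quasi-likelihood test over all tested entries.

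Morphine acts on opioid receptors, which couple to inhibitory G proteins, lower cyclic AMP and open potassium channels in neurons. In withdrawal this signalling is known to rebound, and cortical synapses, stress hormones and daily rhythms are known to shift. The daily rhythm runs on a loop in which the proteins CLOCK and BMAL1 (encoded by Arntl) bind E-boxes and switch on the Per, Cry, Nr1d1 and Ciart genes, whose products shut the loop down again. DBP, HLF and TEF carry the rhythm to further genes through D-boxes. Heat shock genes are switched on by HSF1 when proteins misfold, and genes of cholesterol synthesis by SREBP2 when membrane cholesterol is low.

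No known gene passed an adjusted p of 0.05 with a fold of at least 1.5 in the morphine comparison (0 of 14162, 0%), and none passed at any fold. The lowest adjusted p was 0.134. At an unadjusted p below 0.05 there were 996 known genes (7.03%), by the same edgeR test, of which 644 were higher (4.55%) and 352 lower (2.49%) after morphine. With library size as the only scaling these were 817 higher and 264 lower. Of all known genes 55.5% were fitted above 0. DESeq2's Wald test called 5 genes and limma-voom 0. The median of all known genes was 0.02 and their median SE 0.15 (log2), and for 12922 of them (91.2%) the 95% interval lay within a 2-fold difference in both directions; within 1.5-fold it lay for 9477 (66.9%). A fold of 1.5 or more was fitted for 316 genes. Of all known genes, 5 had no overlap between the 8 morphine and the 8 saline mice (0.0353%), of which 1 was higher (0.00706%) and 4 lower (0.0282%). The higher one was Clcn7, a chloride transporter of lysosomes, at 0.34 ± 0.09 (log2, SE), and the lower ones were Fubp1, Thrap3, Hspd1 and Max, the partner of Myc, the last at -0.51 ± 0.13; Clcn7 and Max were named after their values were seen.

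The genes with the smallest unadjusted p-values on the higher side included 3 of the daily clock. Dbp, a D-box activator (chr7:45705088-45710203, plus strand), was at 12.6, 13.1 and 18.1 CPM in the Ctrl + Saline mice and at 22.0, 24.5, 32.9 and 33.9 CPM in the Ctrl + Morphine mice. In the Kdm7a-shRNA mice it was at 16.4, 19.6, 20, 22.2 and 24.8 CPM after saline and at 26.4, 27, 33.5 and 37.3 CPM after morphine. Thus within each virus every morphine mouse lay above every saline mouse, and only across viruses did the groups overlap. The fitted difference was 0.75 ± 0.13 (log2, SE; adjusted p = 0.134), 0.96 in Ctrl and 0.60 in Kdm7a-shRNA mice. By a two-sided exact permutation of treatments within each virus its p was 0.000227, the smallest that the 4410 arrangements can give, for a gene that was picked for its small p.

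Ciart, a repressor of CLOCK and BMAL1 (chr3:95878503-95882251, minus strand), was at 11.8 to 14.4 CPM in Ctrl + Saline and 17.8 to 22.7 CPM in Ctrl + Morphine mice. In Kdm7a-shRNA mice it was at 8.41, 10.3, 11.6, 14.5 and 18.9 CPM after saline and at 17.7, 18, 27.4 and 31.4 CPM after morphine, so that a single saline mouse reached into the morphine range. Its difference was 0.76 ± 0.16 (log2, SE; adjusted p = 0.283). Nr1d1, which encodes the repressor REV-ERB alpha (chr11:98767932-98775333, minus strand), had a median of 15.4 CPM over the saline mice (11.6 to 21.4) and 23.1 CPM over the morphine mice (15.1 to 26.5). Within each virus its morphine mice lay above its saline mice, the closest at 21.7 and 21.4 CPM. The difference of 0.52 ± 0.12 (log2, SE) had an adjusted p of 0.456. Exons of Nr1d1 overlap Thra on the opposite strand, whose own difference was 0.09 ± 0.17, and those of Dbp overlap Sphk2, at 0.18 ± 0.14; whether the counting used strand is not given in the sources used here.

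Of the 22 clock genes tested, 14 lay above 0 and 8 below, and 6 had an unadjusted p below 0.05, all of them higher (27.3%, beside 4.55% of all known genes). The other 3 were Per3 at 0.37 ± 0.13, Per1 at 0.33 ± 0.15 and Hlf at 0.24 ± 0.11 (log2, SE), a pair of period repressors and a D-box activator. Per2 and Tef, of the same families, were fitted at 0.28 ± 0.15 and 0.21 ± 0.11. The activator genes Arntl and Clock were at -0.18 ± 0.14 and -0.10 ± 0.12 and the repressor gene Cry1 at -0.30 ± 0.15, and none of these 3 had an unadjusted p below 0.05. The median of the list was 0.12 against 0.02 over all known genes, 0.11 in each virus. Leaving out 1 mouse left between 4 and 7 of its genes at an unadjusted p below 0.05 on the higher side. The hour at which each mouse was dissected is not given in the sources used here.

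The 250 bases before the transcription start of the 6 clock genes above were searched in RefSeq promoter windows (GRCm38.p6) on both strands. The letters searched were the E-box CACGTG and the D-box TTANGTAA, which do not overlap each other. An E-box lay in the windows of Ciart and Per1 (2 of 6 genes, beside 6.04% of 32536 promoter windows of this length) and a D-box in that of Per3 (1 of 6, beside 2.03% of windows). Neither lay in those of Dbp, Nr1d1 or Hlf, so no motif was shared by all. A gene with several windows, such as Per1, was counted if any held the motif, whereas the shares are per window. Of the 8 heat shock genes searched below, 2 also had an E-box. Ciart and Per3 are printed 5′ to 3′, with the E-boxes and the D-boxes in capitals. The Ciart window, chr3:95882229-95882478 on the minus strand, holds 3 E-boxes, and the Per3 window, chr4:151044666-151044915 on the minus strand, holds 2 D-boxes.
Ciart: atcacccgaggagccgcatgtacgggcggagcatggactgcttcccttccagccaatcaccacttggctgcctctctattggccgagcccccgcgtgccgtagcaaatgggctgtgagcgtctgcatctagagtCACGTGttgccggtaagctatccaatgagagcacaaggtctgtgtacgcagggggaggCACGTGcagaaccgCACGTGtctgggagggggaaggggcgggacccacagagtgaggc
Per3: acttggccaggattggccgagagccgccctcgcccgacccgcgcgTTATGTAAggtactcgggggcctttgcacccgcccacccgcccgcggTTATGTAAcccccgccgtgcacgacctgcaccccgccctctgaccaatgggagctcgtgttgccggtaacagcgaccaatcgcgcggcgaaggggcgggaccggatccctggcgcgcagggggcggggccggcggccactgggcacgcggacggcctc
The E-boxes of Ciart begin 116, 58 and 44 bases before the start and the D-boxes of Per3 begin 205 and 158 bases before it. The letters describe the windows and say nothing of which factor was bound in these mice.

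**Figure D1:**
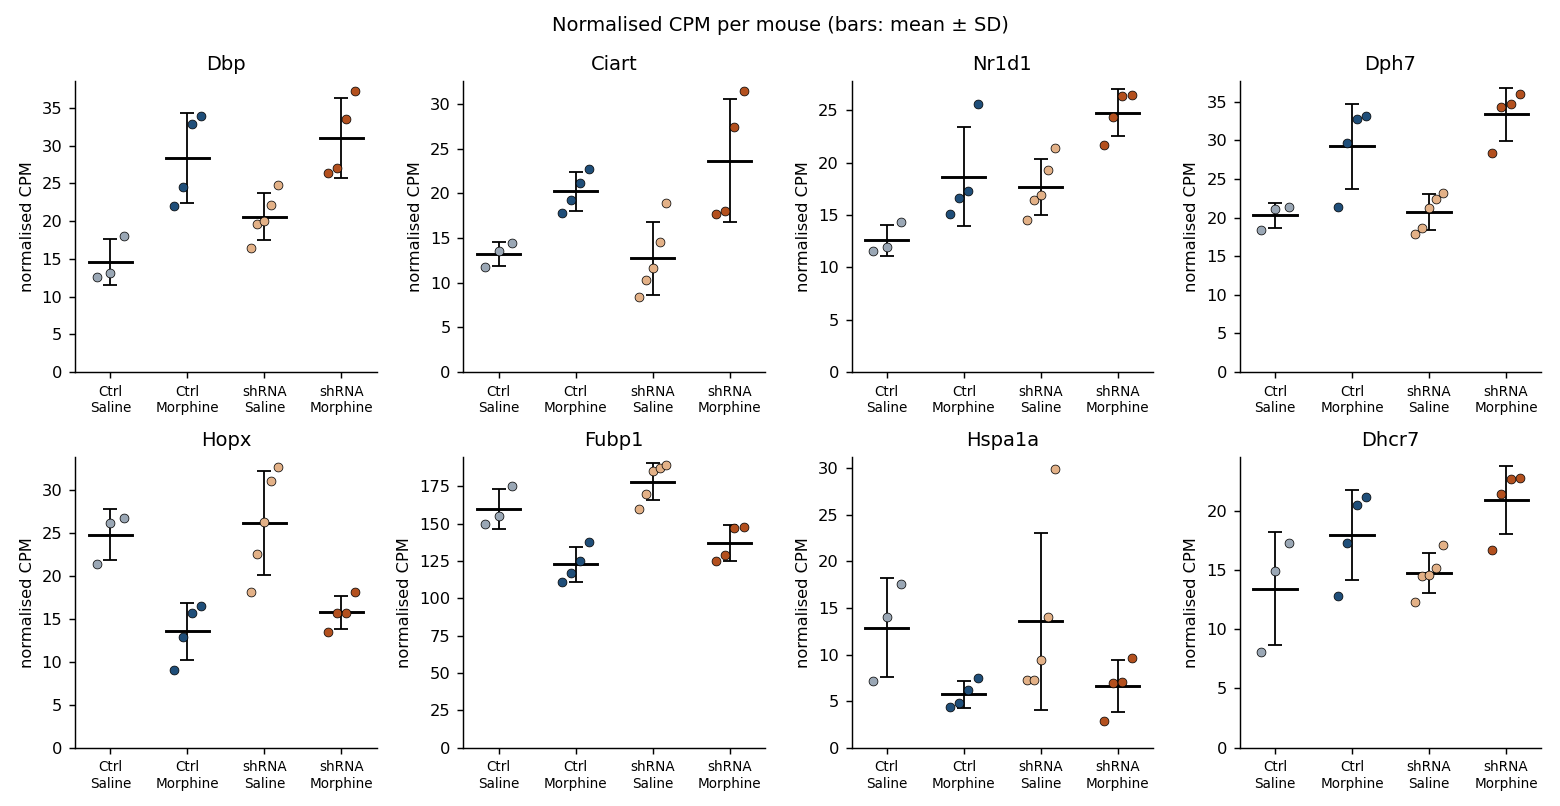
Normalised level (CPM, linear axis from 0) of 8 genes in each mouse, by virus and treatment; points are mice, horizontal bars are group means and whiskers are SDs (n = 3, 4, 5 and 4). In Dbp and Fubp1 the morphine mice do not overlap the saline mice that carried the same virus, whereas in Dhcr7 they overlap in both viruses.

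Other genes on the higher side came from unrelated processes. Dph7, an enzyme of the pathway that modifies elongation factor eEF2 with diphthamide (chr2:24962400-24972163, plus strand), was at 18.4, 21.1 and 21.3 CPM in Ctrl + Saline and 21.3, 29.6, 32.8 and 33.1 CPM in Ctrl + Morphine mice. It was at 17.9 to 23.2 CPM in the 5 Kdm7a-shRNA + Saline and 28.4 to 36 CPM in the 4 Kdm7a-shRNA + Morphine mice. One Ctrl + Morphine mouse therefore sat at the saline level while the other 7 morphine mice lay above all saline mice. The difference was 0.62 ± 0.10 (log2, SE) with an adjusted p of 0.134. Over the 16 edgeR fits that each left out 1 mouse its adjusted p ran from 0.0131 to 0.336. The low end came without Ctrl + Morphine replicate 3, the mouse of the lowest value, so this omission follows the outcome. With all mice its adjusted p ran from 0.000202 by DESeq2's Wald test to 0.54 by edgeR with the replicate number as a block. Tbata, a gene named for thymus, brain and testis, had a median of 6.51 CPM over the saline mice (3.91 to 10.9) and 13.2 CPM over the morphine mice (7.59 to 15.9), a difference of 0.95 ± 0.20. The remaining genes of the 10 were Arhgef4, a guanine nucleotide exchange factor, Galnt16, which starts O-glycans, Trim3, a ubiquitin ligase of synapses, Pcyox1, which degrades prenylated cysteines, and Gramd2, with fitted values between 0.33 for Pcyox1 and 0.77 for Gramd2.

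The lower side was led by Hopx, a homeodomain protein that does not bind DNA and is found in astrocytes and neural stem cells (chr5:77086988-77115121, minus strand). It was at 21.4, 26.2 and 26.8 CPM in Ctrl + Saline mice and at 9.07, 12.9, 15.7 and 16.5 CPM in Ctrl + Morphine mice. In Kdm7a-shRNA mice it was at 18.1, 22.6, 26.3, 31.1 and 32.7 CPM after saline and at 13.5, 15.7, 15.7 and 18.1 CPM after morphine, and the highest of these reached the lowest saline mouse. The difference was -0.79 ± 0.14 (log2, SE; adjusted p = 0.134), the most negative among the 10 genes of the lower side apart from Cxcl5. Fubp1, a single-strand DNA binding regulator of Myc (chr3:152210422-152236826, plus strand), was at 150 to 189 CPM in the 8 saline mice and 111 to 148 CPM in the 8 morphine mice. The 2 groups did not overlap, with a difference of -0.38 ± 0.07 (log2, SE; adjusted p = 0.188), and it was -0.38 in each virus.

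Of the other lower genes, Rfc1, the large subunit of the clamp loader of DNA replication (chr5:65261850-65335670, minus strand), was at 49.5 to 65.4 CPM after saline and 37.0 to 51.9 CPM after morphine, at -0.48 ± 0.09 (log2, SE; adjusted p = 0.188). Wapl and Stag2, the first of which releases cohesin from chromatin while the second is a cohesin subunit, were fitted at -0.50 ± 0.12 and -0.44 ± 0.10. Thrap3, an RNA processing factor, was at -0.31 ± 0.07, and the nucleolar chaperone Npm1 at -0.27 ± 0.07; each of these 4 had an adjusted p of 0.456. Cxcl5, a chemokine, also entered by its p-value, but it was at 0.200 to 0.766 CPM in the morphine mice, a level of few reads, and no fold is given.

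Chaperones, which fold other proteins, lay mostly below 0 in the average over both viruses. Of 29 genes of the endoplasmic reticulum (ER) chaperones and heat shock proteins, 25 were fitted below 0 and 4 above, and 11 had an unadjusted p below 0.05, all lower (37.9%, beside 2.49% of all known genes). The median was -0.20, with -0.21 in Ctrl and -0.20 in Kdm7a-shRNA mice. These medians hide a difference, since 10 of the 29 lay above 0 in Ctrl and 4 in Kdm7a-shRNA mice. With any 1 mouse left out the median stayed between -0.25 and -0.14. The count of 11 became 6 without Ctrl + Saline replicate 3 and 7 without the virus in the model.

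Among the 11, Hspd1, the mitochondrial chaperonin (chr1:55077835-55088243, minus strand), was at 503 to 601 CPM in the saline mice and 361 to 495 CPM in the morphine mice. These ranges did not overlap, and the difference was -0.29 ± 0.07 (log2, SE; adjusted p = 0.456). Its partner Hspe1, whose exons overlap those of Hspd1 on the opposite strand, was at -0.23 ± 0.07. Hspa1a, the inducible cytosolic Hsp70, was at 7.12, 14.0 and 17.6 CPM in Ctrl + Saline and 4.38, 4.80, 6.21 and 7.49 CPM in Ctrl + Morphine mice. In Kdm7a-shRNA mice it was at 7.26, 7.31, 9.45, 14.0 and 29.9 CPM after saline and at 2.92, 6.95, 7.05 and 9.66 CPM after morphine, so that the groups overlapped in both viruses and the saline mice had the wider spread. The difference of -1.10 ± 0.30 (log2, SE) had an adjusted p of 0.56. Hspa1b, a nearly identical copy of Hspa1a with which it could share reads, was at -1.43 ± 0.40.

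The small heat shock protein Hspb1 was fitted at -0.96 ± 0.35 and the Hsp70 co-chaperone Bag3 at -0.46 ± 0.20 (log2, SE). Of the ER members, Hsp90b1 was at -0.27 ± 0.08, Hspa5 (BiP) at -0.32 ± 0.12 and Pdia6 at -0.22 ± 0.09. The constitutive Hspa8 was at -0.17 ± 0.08, and Hsph1 at -0.28 ± 0.13. Chordc1, a co-chaperone of Hsp90 that is not in the list, was at 94.8, 96.9 and 121 CPM in Ctrl + Saline and 41.6, 54.9, 63.2 and 78.4 CPM in Ctrl + Morphine mice. Its difference was -0.55 ± 0.14 over both viruses, -0.81 in Ctrl and -0.34 in Kdm7a-shRNA mice. In the latter the 95% interval, from -0.71 to 0.03, held 0. Of 23 immediate early genes, such as Fos and Egr1, which answer to neuronal activity and handling, 0 had an unadjusted p below 0.05 in the average (16 above 0, 7 below). Their median was 0.29 in Ctrl and 0.12 in Kdm7a-shRNA mice. For the difference of effects between viruses 5 of the 23 had an unadjusted p below 0.05, beside 11.8% of all known genes.

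The heat shock element, searched as GAANNTTC in the same windows, lay in 5 of the 8 heat shock genes with a window (Hspa1a, Hspa1b, Hspb1, Hspd1 and Hspe1) and in 6.72% of all windows. The windows of Hspd1 and Hspe1 overlap, so that the same letters can be counted for both; these genes were chosen after their values were seen. That of Hspa1a, chr17:34972157-34972406 on the minus strand, is printed with the element in capitals, 104 bases before the start, since Hspa1a had the largest fitted decrease of the expressed heat shock genes apart from its copy Hspa1b.
Hspa1a: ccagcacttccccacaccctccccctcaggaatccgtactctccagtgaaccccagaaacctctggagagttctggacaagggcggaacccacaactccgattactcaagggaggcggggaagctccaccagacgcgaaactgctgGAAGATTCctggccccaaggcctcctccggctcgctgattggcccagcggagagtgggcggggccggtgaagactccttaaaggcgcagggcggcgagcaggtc

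Creld2, an ER member of the chaperone list, had opposite signs in the 2 viruses. It was at 6.15, 7.29 and 9.52 CPM in Ctrl + Saline and 11.7, 12, 13.8 and 15.9 CPM in Ctrl + Morphine mice, whereas it was at 14.9, 15, 15.3, 17.3 and 21.6 CPM in Kdm7a-shRNA + Saline and 7.47, 7.97, 9.12 and 9.95 CPM in Kdm7a-shRNA + Morphine mice. Within each virus the treatments did not overlap. The effect in Kdm7a-shRNA mice minus that in Ctrl mice was -1.77 ± 0.26 (log2, SE; adjusted p = 0.0182, edgeR's quasi-likelihood test), while the average over both was -0.21 ± 0.25. Of the 29 chaperone genes, 8 had an unadjusted p below 0.05 for this difference of effects, beside 11.8% of all known genes, and 1, Creld2, passed. Of the 7 that did not pass, Sdf2l1, Pdia3 and Xbp1 were fitted at 0.87, 0.80 and 0.50 in Ctrl and at -1.02, -0.68 and -0.71 in Kdm7a-shRNA mice, and Hsp90ab1 and Dnaja1, of the cytosol, at -0.35 and -0.45 in Ctrl and at 0.06 and 0.08 in Kdm7a-shRNA mice; they are named for these values.

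Genes of cholesterol synthesis lay above 0. Of the 24 tested, 22 were fitted above 0 and 2 below, beside 55.5% of all known genes above 0. An unadjusted p below 0.05 was found for 9, all higher (37.5%, beside 4.55% of all known genes). The median was 0.26, close in Ctrl (0.28) and Kdm7a-shRNA mice (0.26). With any 1 mouse left out it stayed between 0.18 and 0.32, with 6 to 12 such genes.

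Dhcr7, which makes the last step to cholesterol, was at 8.08 to 17.3 CPM after saline and 12.8 to 22.8 CPM after morphine. The groups overlapped in both viruses, and the difference was 0.46 ± 0.14 (log2, SE; adjusted p = 0.608), 0.41 in Ctrl and 0.50 in Kdm7a-shRNA mice. Cyp51, the lanosterol demethylase, was at 0.42 ± 0.13. Steps from the start of the pathway to its end were among the 9, with Hmgcs1 at 0.36 ± 0.15, Fdft1 at 0.32 ± 0.13, Sqle at 0.44 ± 0.18 and Tm7sf2 at 0.27 ± 0.10. The sensor gene Insig1 was at 0.49 ± 0.20 and the sterol carrier Stard4 at 0.46 ± 0.18. Srebf2, which encodes SREBP2, was at 0.16 ± 0.09.

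Cholesterol genes are active in glia, and markers of these cells were read beside them. Of 12 oligodendrocyte markers, 6 lay above and 6 below 0, with a median of -0.07 that ran from -0.13 to 0.02 over the alternatives with all mice, and 0 had an unadjusted p below 0.05. Of 12 astrocyte markers, 9 lay below 0 with a median of -0.18. This median was -0.10 at the weakest over the alternatives with all mice and -0.09 without Kdm7a-shRNA + Morphine replicate 4. Of these markers 3 had an unadjusted p below 0.05 (25%, beside 2.49% of all known genes lower). They were S100b at -0.29 ± 0.11, Aldoc at -0.21 ± 0.08 and Sox9 at -0.42 ± 0.19. The list median was -0.17 in Ctrl and -0.22 in Kdm7a-shRNA mice. Aldoc was at -0.41 in Ctrl and -0.05 in Kdm7a-shRNA mice, and S100b at -0.25 and -0.31. For the difference of effects 3 of the 12 markers had an unadjusted p below 0.05, beside 11.8% of all known genes. The part of glial content in the cholesterol values was not tested.

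**Figure D2:**
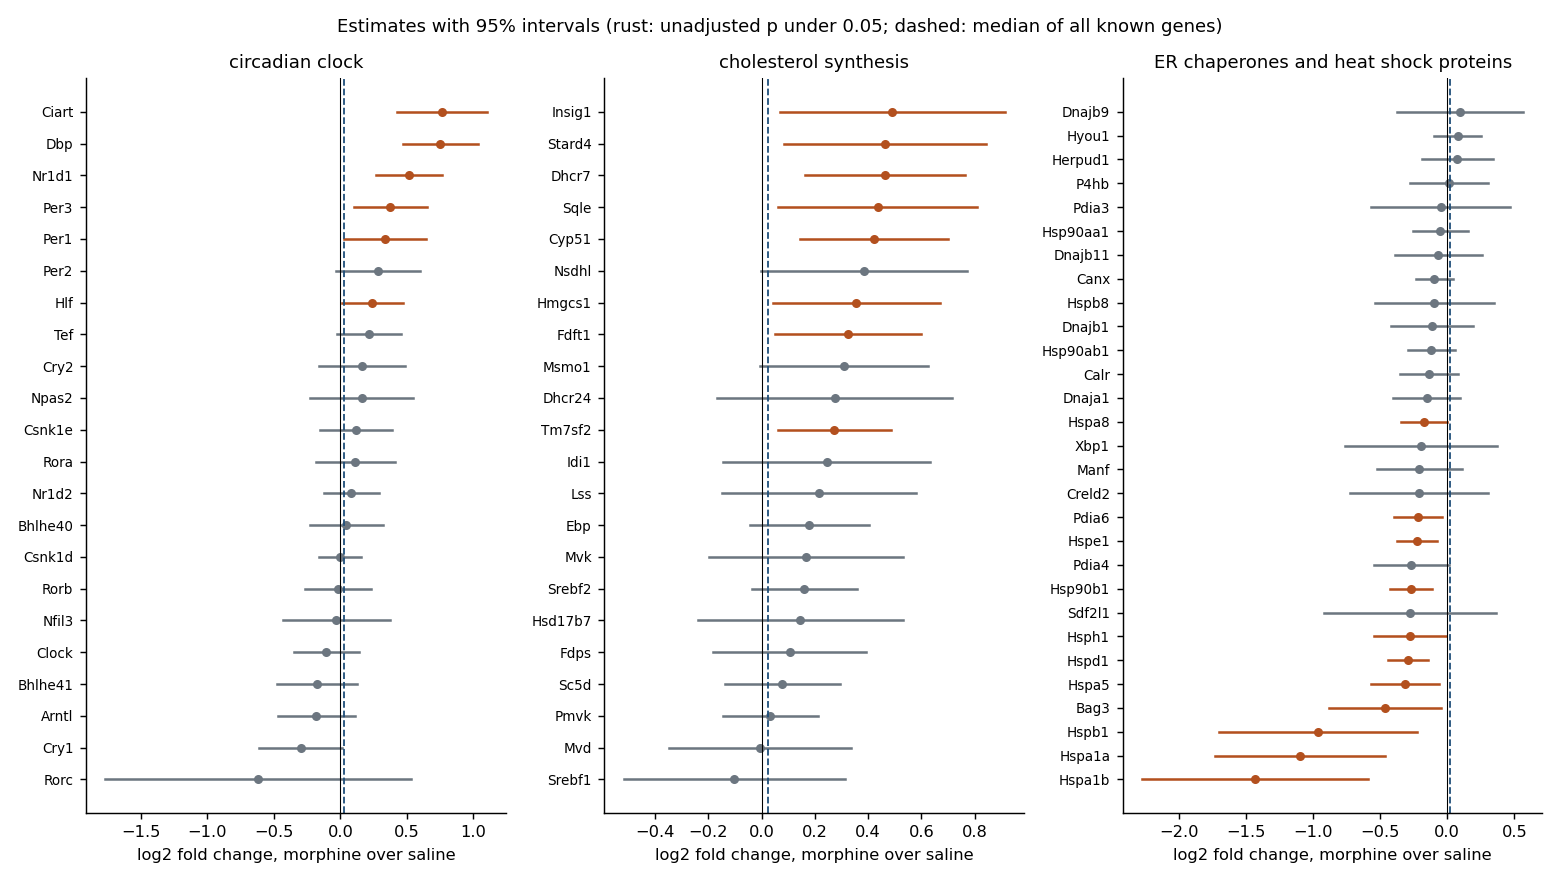
Fitted log2 difference of morphine over saline (points) with 95% intervals (lines) for 22 clock, 22 cholesterol and 29 chaperone genes; rust marks an unadjusted p below 0.05. The rust points of the clock and cholesterol lists lie right of 0 and those of the chaperone list left of it.

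Genes of synapses and of excitability also leaned upward. Of 39 genes of synaptic vesicle release, 38 were fitted above 0 and 1 below, beside 55.5% of all known genes above 0, with a median of 0.15 (0.17 in each virus). An unadjusted p below 0.05 was found for 8, all higher (20.5%, beside 4.55% of all known genes). Rab3a, a vesicle GTPase, was at 1210, 1360 and 1900 CPM in Ctrl + Saline and 1990, 2090, 2140 and 2400 CPM in Ctrl + Morphine mice, at 1120, 1140, 1270, 1700 and 1870 CPM in Kdm7a-shRNA + Saline and at 1360, 1670, 1760 and 1870 CPM in Kdm7a-shRNA + Morphine mice. The groups were apart in Ctrl and overlapped in Kdm7a-shRNA mice, with a difference of 0.36 ± 0.12 (log2, SE) over both. Slc17a7, the vesicular glutamate transporter, was at 0.36 ± 0.13, Stx1a at 0.39 ± 0.14 and Syn1 at 0.33 ± 0.15. The count of 8 moved by over 1.5 times without any of 9 of the 16 mice, from 4 (for example without Ctrl + Morphine replicate 2) to 13 (without Kdm7a-shRNA + Saline replicate 4), whereas the median stayed between 0.11 and 0.21.

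Of 66 potassium channel genes, 53 lay above 0 and 13 below, beside 55.5% of all known genes above 0, with a median of 0.18. An unadjusted p below 0.05 was found for 10, all higher (15.2%, beside 4.55% of all known genes). Kcns3, a silent subunit that modifies other channels, was at 2.47 to 3.97 CPM after saline and 3.12 to 5.72 CPM after morphine, at 0.44 ± 0.15. Kcns2 was at 0.53 ± 0.21 and Kcnq5, of the M-current, at 0.38 ± 0.16. The count ran from 5 without Kdm7a-shRNA + Saline replicate 3 to 17 without Kdm7a-shRNA + Morphine replicate 3, and 8 of the 16 mice moved it by over 1.5 times. Markers of excitatory neurons had a median of 0.08, with 12 of 15 above 0, and those of interneurons 0.04, with 8 of 11 above 0.

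Genes of the opioid system, of other transmitters and of cyclic AMP signalling were also read. As with all known genes, none passed in the morphine comparison. Of 7 genes of the opioid system, 0 had an unadjusted p below 0.05. Oprm1, the gene of the mu receptor, had a mean of 1.61 CPM after saline and 2.05 CPM after morphine, with a difference of 0.16 ± 0.60 (log2, SE) whose error did not permit a statement. Penk was at -0.19 ± 0.27, Pdyn at 0.09 ± 0.15 and Oprl1 at 0.22 ± 0.17. Of 21 neuropeptide genes, 20 GABA genes and 17 receptors of dopamine, serotonin and noradrenaline, 0 had an unadjusted p below 0.05, with list medians of 0.02, 0.07 and 0.17. Of 25 glutamate receptor genes 2 had one, both higher (8%, beside 4.55% of all known genes). They were Grm2 at 0.37 ± 0.17 and Grm3 at 0.34 ± 0.15, which encode receptors that restrain glutamate release. Grm2 was at 0.38 in Ctrl and 0.36 in Kdm7a-shRNA mice, whereas Grm3 was at -0.01 in Ctrl and 0.60 in Kdm7a-shRNA mice. Grin2a, a subunit of the NMDA receptor, was at -0.03 ± 0.14, and its sign changed with the mice used. Of 32 cyclic AMP genes 4 were higher at an unadjusted p below 0.05, with the adenylyl cyclase genes Adcy9 at 0.53 ± 0.17 and Adcy2 at 0.28 ± 0.12 the 2 of smallest p.

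The remaining lists are set beside the 4.55% of all known genes that were higher and the 2.49% that were lower at an unadjusted p below 0.05. Among 24 glucocorticoid receptors and targets, 1 was higher (Per1, shared with the clock list) and 1 lower (Cdkn1a, -0.46 ± 0.15) at an unadjusted p below 0.05. The same held for 80 genes of the nuclear respiratory chain, with Uqcrc1 at 0.21 ± 0.08 and Ndufa2 at -0.14 ± 0.07, for 37 proteasome subunits, for 46 genes of G proteins and their regulators, for 41 of actin and for 28 histone demethylases and H3K9 or H3K27 enzymes. Fscn1, an actin bundling gene, was at 0.91 in Ctrl and -0.11 in Kdm7a-shRNA mice, 0.33 ± 0.18 on average. Of 37 MAP kinase genes 4 were higher (10.8%), of 39 mitochondrial carriers 3 were higher (7.69%), of 50 axon guidance genes 3 were higher (6%) and 2 lower (4%), of 75 mitochondrial ribosomal proteins 3 were higher (4%) and 2 lower (2.67%), and of 22 postsynaptic scaffolds and 23 aminoacyl-tRNA synthetases 1 higher and 1 lower respectively. The integrated stress response had 3 of 27 lower (11.1%), Slc7a3, Psph and Cebpg, and 19 of 27 below 0, with a list median of -0.10. In Ctrl mice its median was -0.01, with 13 genes above 0 and 14 below. In Kdm7a-shRNA mice it was -0.17, with 1 above 0 and 26 below. Gapdh was at 0.05 ± 0.09.

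Cytosolic ribosomal proteins had small values of 1 sign. Of 77 genes, 74 were fitted below 0, beside 44.5% of all known genes, with a median of -0.11. The median was -0.07 in Ctrl mice, with 12 genes above 0, and -0.14 in Kdm7a-shRNA mice, with 4 above 0. At an unadjusted p below 0.05 were 7, all lower (9.09%, beside 2.49% of all known genes), such as Rps23 at -0.20 ± 0.08 and Rpl15 at -0.20 ± 0.08. Rps23 was at -0.12 in Ctrl and -0.26 in Kdm7a-shRNA mice, and Rpl15 at -0.05 and -0.31. The count of 7 ran from 0 without Kdm7a-shRNA + Morphine replicate 1 to 30 without Kdm7a-shRNA + Morphine replicate 3 or without Kdm7a-shRNA + Saline replicate 4, and 12 of the 16 mice moved it by over 1.5 times. The mean level of the list also differed between viruses, at 9.53 to 9.77 log2 CPM in the Ctrl + Saline and 9.82 to 10.2 in the Kdm7a-shRNA + Saline mice.

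**Figure D3:**
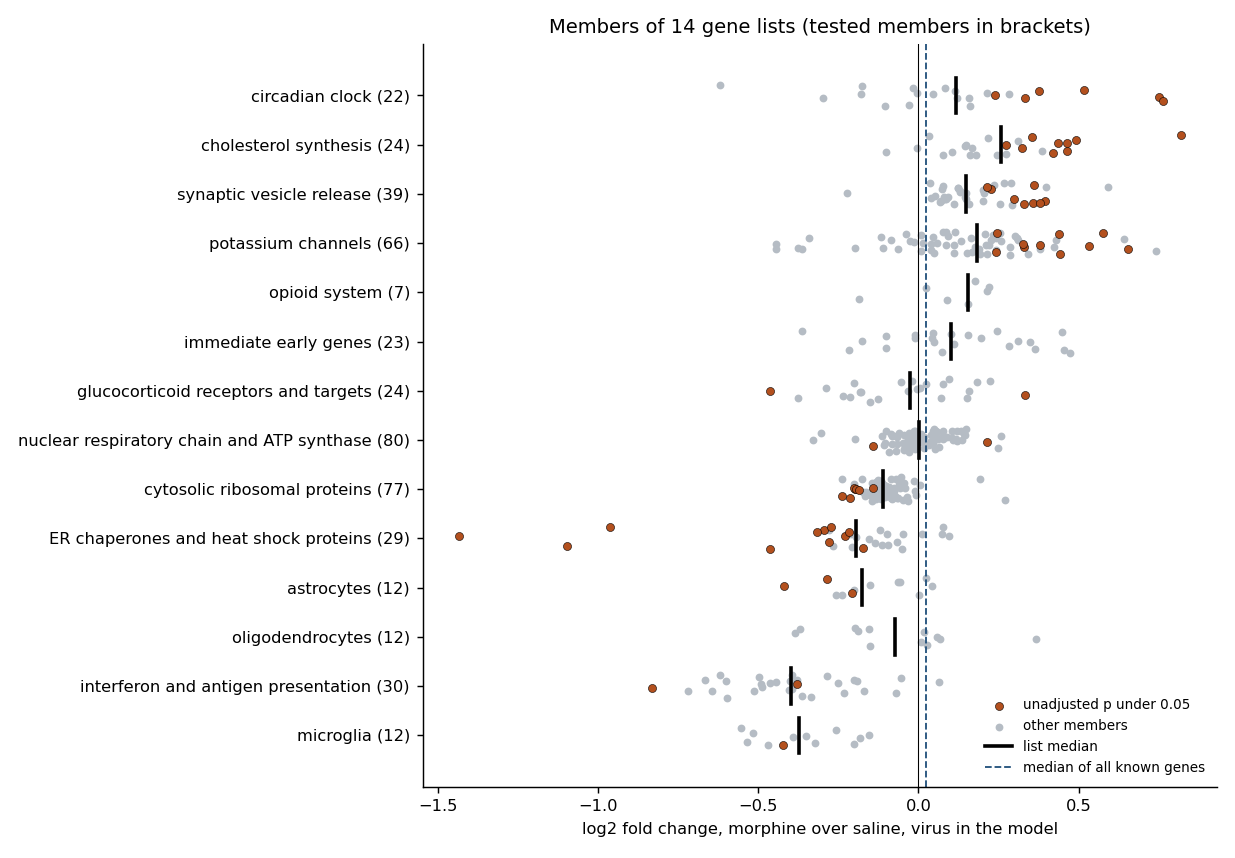
Fitted log2 difference of morphine over saline for each tested member of 14 gene lists; rust points have an unadjusted p below 0.05, black bars are list medians and the dashed line is the median of all known genes (0.02). The medians run from -0.40 for interferon and antigen presentation to 0.26 for cholesterol synthesis.

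Genes of immune cells lay below 0 with wide errors. Of 12 microglial markers 12 were fitted below 0, with a median of -0.37 (-0.32 in Ctrl and -0.50 in Kdm7a-shRNA mice). However, 1 had an unadjusted p below 0.05 (8.33%, beside 2.49% of all known genes lower), P2ry12 at -0.42 ± 0.19. Trem2 was at -0.52 ± 0.30 and Tyrobp at -0.47 ± 0.28. The mean log2 CPM of the list was 6.75 to 7.22 in Ctrl + Saline and 6.04 to 7.10 in Ctrl + Morphine mice, 7.65 to 9.14 in Kdm7a-shRNA + Saline and 7.07 to 9.11 in Kdm7a-shRNA + Morphine mice, so the treatments overlapped in both viruses while the saline groups of the viruses did not. With Kdm7a-shRNA 11 of 12 markers were called higher, beside 8.6% of all known genes higher and 2.08% lower. Fewer cells of a type and less RNA per cell cannot be told apart in whole tissue. The count of 1 became 9 without Kdm7a-shRNA + Morphine replicate 3, the morphine mouse of the highest microglial level, and 10 of the 16 mice moved it.

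Of 30 interferon and antigen presentation genes, 29 were fitted below 0, with a median of -0.40 that ran from -0.64 without Kdm7a-shRNA + Morphine replicate 3 to -0.25 without Kdm7a-shRNA + Morphine replicate 4. In Ctrl mice the median was -0.14 with 10 of 30 genes above 0, and in Kdm7a-shRNA mice -0.57 with 1 of 30 above 0. Over both, 2 had an unadjusted p below 0.05 (6.67%, beside 2.49% of all known genes lower), Ifit1 at -0.83 ± 0.38 and Ifi27 at -0.38 ± 0.18. Ifit1 was at 89.8, 250, 269 and 291 CPM in Ctrl + Morphine and 173, 270 and 353 CPM in Ctrl + Saline mice, and at 64.3, 64.8, 131 and 212 CPM in Kdm7a-shRNA + Morphine and 89.8, 133, 287, 382 and 546 CPM in Kdm7a-shRNA + Saline mice, and the groups overlapped in both viruses. The summed level of the list ran from 1530 to 5447 CPM in Ctrl + Morphine and from 3449 to 4612 CPM in Ctrl + Saline mice, from 2312 to 8779 CPM in Kdm7a-shRNA + Morphine and from 3181 to 12470 CPM in Kdm7a-shRNA + Saline mice. The same mice were at the extremes of the microglial and the interferon lists, Ctrl + Morphine replicate 2 at the bottom and Kdm7a-shRNA + Saline replicate 3 at the top. The interferon count was 10 without Kdm7a-shRNA + Morphine replicate 3 and 0 without any of 7 other mice, for example Kdm7a-shRNA + Morphine replicate 1. The part of microglial content in these values was not tested.

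**Figure D4:**
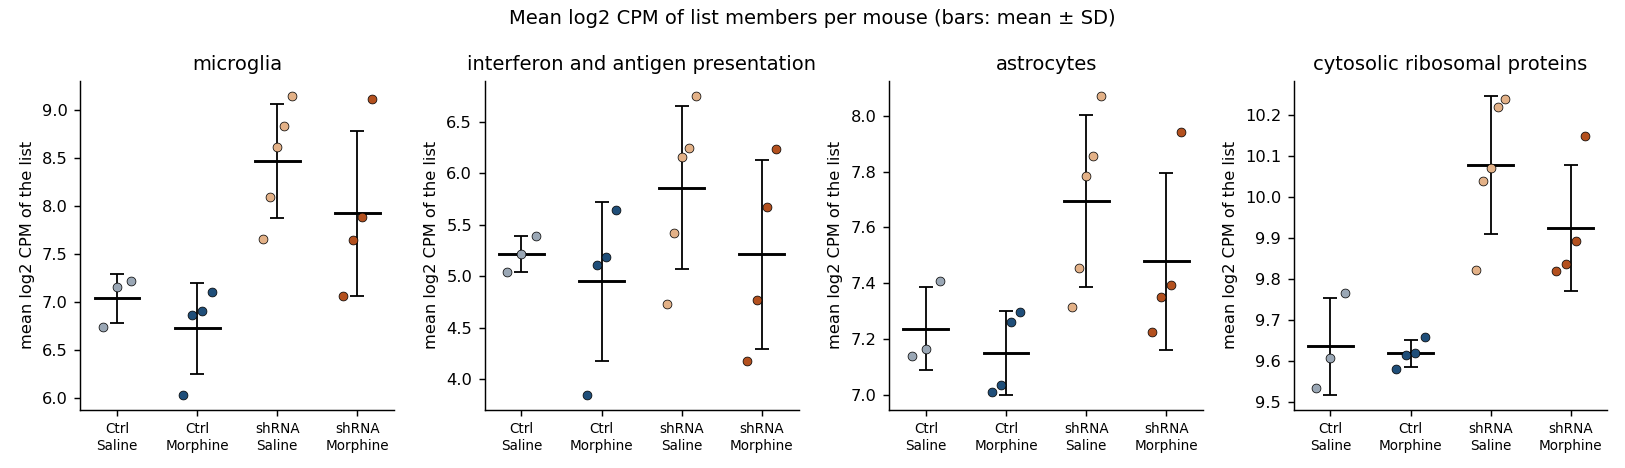
Mean log2 CPM over the members of 4 lists in each mouse, by virus and treatment; points are mice, bars are group means and whiskers SDs (n = 3, 4, 5 and 4), and the vertical axes do not start at 0. The treatments overlap within each virus in all 4 lists, and the microglial level of the Kdm7a-shRNA + Saline mice lies above that of all Ctrl mice.

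Markers of tissue that dissection could add were also read. Striatal markers had a median of -0.07 (4 of 11 above 0) and olfactory markers of -0.13 (2 of 4 above 0), with 0 at an unadjusted p below 0.05 in both. Meningeal markers had a median of 0.18. Of these, 1 of 10 was higher at an unadjusted p below 0.05 (10%, beside 4.55% of all known genes), Aldh1a2 at 0.66 ± 0.30. Oligodendrocyte precursors had a median of -0.10 and endothelial cells and pericytes one of 0.05, with 0 in both. Over the alternatives with all mice the striatal median ran up to 0.03, the olfactory up to 0.03 and the meningeal down to -0.03, each a change of sign. All 5 choroid plexus and ependymal markers tested lay below 0 with a median of -0.51, at -0.03 in the weakest alternative. Of them 1, Folr1 at 0 to 2.49 CPM, had an unadjusted p below 0.05 (20%, beside 2.49% of all known genes lower). The 5 red blood cell genes were the globin genes, which share sequence with each other, and Alas2, which is not a globin. These genes were below 0 in Ctrl mice (median -1.23) and above 0 in Kdm7a-shRNA mice (0.46). All 5 had an unadjusted p below 0.05 for the difference of effects, beside 11.8% of all known genes.

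The average over both viruses is a full description only where the viruses had like effects. The mice of the 2 within-virus comparisons are different animals, and across the 14162 known genes Pearson's r between their morphine effects was -0.09, a description over genes, which are not independent replicates; 47.8% of genes had the same sign in both. Within Ctrl mice edgeR called 0 known genes (1782 at an unadjusted p below 0.05, 12.6%), and within Kdm7a-shRNA mice 1 (0.00706%) was, Slc25a12 (1048, 7.4%). The difference of the effects itself, Kdm7a-shRNA minus Ctrl, had an unadjusted p below 0.05 in 1677 known genes (11.8%). It was called for 16 (0.113%), above 0 in 2 and below 0 in 14, which is a sign and not a size of effect. All 16 had an average effect with an unadjusted p above 0.05. This count rests on few mice: it was 239 without Ctrl + Saline replicate 1 and 0 without Ctrl + Saline replicate 2 or 3. With the replicate number as a block it was 6.

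At an unadjusted p below 0.05 for the difference of effects were 0 of 22 clock genes and 2 of 24 cholesterol genes, beside 11.8% of all known genes. The difference for Dbp was -0.37 (adjusted p = 0.659), that for Ciart 0.27 (adjusted p = 0.833) and that for Hopx 0.14 (adjusted p = 0.913), each with an interval that included 0; such values do not show that the effects were equal.

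**Figure D5:**
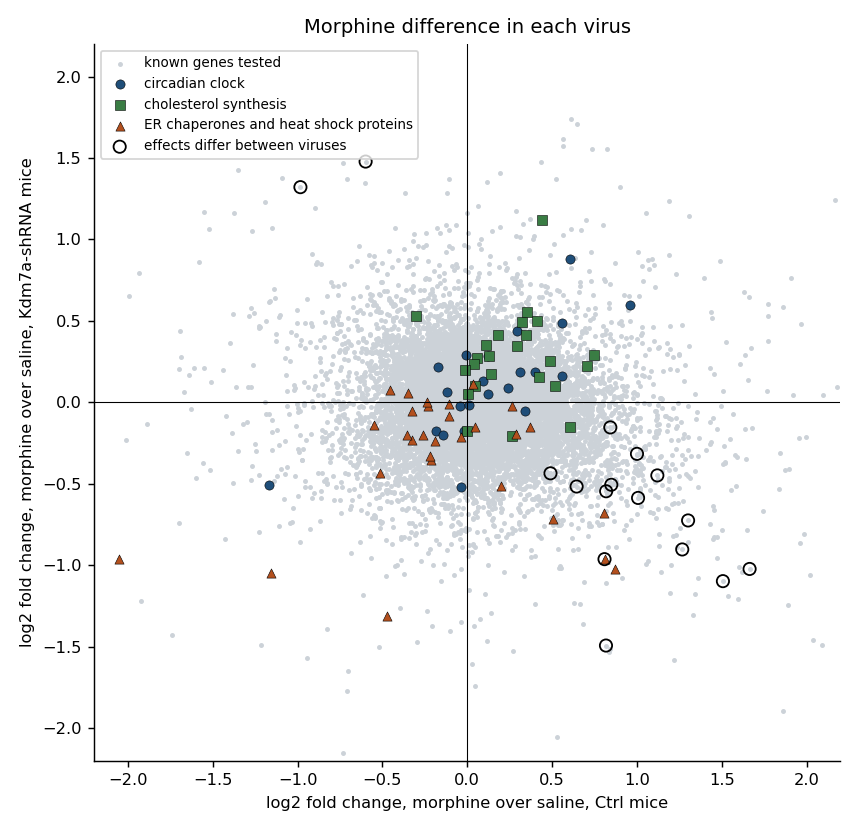
Log2 difference of morphine over saline in Ctrl mice (horizontal) and in Kdm7a-shRNA mice (vertical) for the known genes tested, with 3 lists coloured and the 16 genes circled whose effects differed between viruses; 39 genes lie outside the axes. Cholesterol genes sit mostly in the upper right, clock genes are spread over both sides of 0, and all 16 circled genes lie in a quadrant of opposite signs.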

How the data were processed

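Total RNA of the mPFC was made into cDNA-PCR libraries and sequenced on the Nanopore platform. Per the study's methods, the authors filtered reads by quality and length, removed ribosomal reads, kept full-length non-chimeric reads and placed them on mm10 with minimap2, and the submitters' processing notes name edgeR 3.8.6. The deposited counts are the reads the authors assigned to each gene, without normalization. The deposited CPM are the same counts divided by the column total and were used only as a check.

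Here the counts were filtered with filterByExpr on the 4 groups (18826 entries left), scaled by TMM and fitted in R 4.3.3 with edgeR 4.0.16 (estimateDisp, glmQLFit, glmQLFTest) as virus + treatment over all 16 mice. The treatment term was tested, and the interaction and within-virus effects came from a fit with 1 coefficient per group. The study's methods give the thresholds (fold of 1.5, adjusted p of 0.05). P-values were adjusted over all 18826 entries. Normalised CPM use the TMM-scaled library size in its place. Standard errors are the log2 difference over the square root of F. The titles number the samples per group and no source says that animals were pooled.

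Named genes were the 10 higher and 10 lower genes of smallest unadjusted p (none was called), Kdm7a, Fscn1, Grin2a and Gapdh, and the 2 of smallest p in each of 39 hand-written lists; further list members are named beside their counts. Some genes that this rule selects or that lists hold are counted but not reported here by name. The members and lists were chosen with earlier results of these data known. Some genes stand in several lists. Positions are from GENCODE vM21 (GRCm38). Alternatives were RLE factors, library size, no filter, at least 10 counts in every mouse, known genes only, DESeq2 1.42.0, limma-voom (limma 3.58.1), the replicate number as a block, treatment alone, the mean of the within-virus effects, and each mouse left out. The scripts were tested on simulated data. Transcript-level files were not used here.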

Additional observations from a re-analysis of the deposited data

Results flagged for a closer look

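For 16 known genes the morphine effect differed between the viruses by edgeR's quasi-likelihood test of the interaction, at an adjusted p below 0.05 and 1.5-fold. The values are the effect in Kdm7a-shRNA mice minus that in Ctrl mice (log2). Positive values were found for Ssr3, a subunit of the ER translocon complex (2.30), and Slc25a12, a mitochondrial aspartate and glutamate carrier (2.08). Among the negative values, Tmem70, an assembly factor of ATP synthase, was at -2.17, the ER chaperone gene Creld2 at -1.77, the recycling endosome GTPase Rab11a at -1.59, the growth factor Pdgfa at -1.32 and Saraf, a brake on store-operated calcium entry, at -1.16. The others were Tm2d1 at -2.69, Dusp28 at -2.60, Spef1 at -2.31, Gde1 at -2.03, Sppl2b at -1.57, Fez2 at -1.36, Tspan3 at -1.355, Poldip2 at -0.997 and Rtraf at -0.926. None of the 16 passed without Ctrl + Saline replicate 2 or without Ctrl + Saline replicate 3.

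Single mice stood apart from their group in 13 of 288 checks of named genes in groups of 4 or 5 mice, where chance gives about 14.4. Adrb1 was at 3.56 CPM in Kdm7a-shRNA + Saline replicate 1, above the 2.01 to 2.3 CPM of the other mice. Aldoc was at 9170 CPM in Kdm7a-shRNA + Morphine replicate 2, above the 7430 to 7550 CPM of the other mice. Cdhr1 was at 1.41 CPM in Kdm7a-shRNA + Saline replicate 5, above the 0.118 to 0.45 CPM of the other mice. Folr1 was at 0.0998 CPM in Ctrl + Morphine replicate 1 and had no read in the others of the group. Galnt16 was at 44.1 CPM in Ctrl + Morphine replicate 2, above the 27.4 to 29.2 CPM of the other mice. Mrpl55 was at 96 CPM in Kdm7a-shRNA + Morphine replicate 3, above the 83.2 to 83.6 CPM of the other mice. Pomc was at 6.57 CPM in Ctrl + Morphine replicate 3, above the 3.42 to 3.84 CPM of the other mice. Ppp1r1b was at 52.9 CPM in Kdm7a-shRNA + Morphine replicate 4, below the 71.1 to 74.8 CPM of the other mice. Psmb4 was at 179 CPM in Ctrl + Morphine replicate 1, below the 199 to 203 CPM of the other mice. S100b was at 129 CPM in Ctrl + Morphine replicate 3, above the 105 to 109 CPM of the other mice. Slc25a11 was at 56.2 CPM in Kdm7a-shRNA + Morphine replicate 2, below the 62.4 to 63.1 CPM of the other mice. Slc25a51 was at 54.3 CPM in Ctrl + Morphine replicate 2, above the 42.7 to 43.7 CPM of the other mice. Slc7a3 was at 82.5 CPM in Kdm7a-shRNA + Morphine replicate 2, above the 56.5 to 59.5 CPM of the other mice. Kdm7a-shRNA + Morphine replicate 2 accounted for 3 of these. None was a clock, chaperone or cholesterol gene.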

How the results depend on the processing

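The count of genes called for the morphine difference was 0 under RLE factors, library size alone, no filter, the stricter filter, known genes only, limma-voom, treatment without virus and the mean of the within-virus effects, and 5 with DESeq2's Wald test (Tbata, Dph7, Ciart and Dbp higher, Hopx lower). With 1 mouse left out it was 0 to 1, the 1 being Dph7 without Ctrl + Morphine replicate 3. The count for the difference of effects between viruses, 16 in the report, was 30 with no filter, 191 with DESeq2 and 50 with limma-voom, and 0 to 239 with 1 mouse left out. The cause of these shifts was not tested. Of the named genes, Grin2a alone changed sign, to 0.0204 with treatment alone and to between 0.00595 and 0.0574 in 5 of the fits that left out a mouse, which ran from -0.096 to 0.0574. The clock, cholesterol, chaperone, vesicle, potassium channel, ribosomal, interferon, microglial and astrocyte lists kept the sign of their medians under every alternative. Those of neuropeptides, the respiratory chain, mitochondrial ribosomal proteins, synthetases, glucocorticoid targets, histone enzymes, interneurons, oligodendrocytes, endothelial cells, meninges, striatum and olfactory areas changed sign under at least 1.

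Replicate numbers are shared between groups but belong to different animals. The correlation of deviations between the saline and morphine mice of the same number was 0.11 to 0.207 in Ctrl and -0.0953 to 0.395 in Kdm7a-shRNA mice, so that not every pair of the same number deviated together, although all 3 in Ctrl did, above 0.1. In Ctrl 5 of 6 mice, and in Kdm7a-shRNA 4 of 8, correlated best with the mouse of their own number, a hint from the data and not from the design. No source used here says that a number marks a shared litter, batch or day. With the replicate block the morphine count was 0 and the count for the difference of effects 6.

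Between 6596991 and 12418112 reads per mouse limit genes at few CPM, such as Oprm1, whose interval held a 2-fold difference in either direction.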
